A study of Mus musculus with 3 samples.

Results

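Lung pericytes were examined as a gated set of single cells: 117 of the 28782 barcodes kept from 3 droplet libraries of mouse lung. The cells were chosen by their UMI counts, a UMI being 1 counted RNA molecule. Each kept barcode had at least 250 detected genes and at most 15% of its UMIs from mitochondrial genes. A cell entered the gate with at least 2 UMIs of Cox4i2, Higd1b and Notch3 together, at least 1 of Pdgfrb, and none of Myh11, Ptprc, Pecam1, Cdh5 or Epcam. The groups were irradiated conditional knockout mice that also received a drug, irradiated wild-type mice, and non-irradiated wild-type mice, with 1 library each. The gate held 15 cells of the irradiated conditional knockout with drug, 5 of the irradiated wild-type and 97 of the non-irradiated wild-type. The knocked-out gene, the Cre line, the drug, its dose, the radiation dose, the time of sampling, the strain, the age and the number of mice per library were not stated in the labels. The conditional knockout and the drug were given together, so they cannot be told apart, and no non-irradiated knockout or untreated knockout group was analysed here.

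Pericytes are mural cells that sit within the basement membrane of capillaries and touch the endothelium. They depend on PDGF-B from endothelial cells, which acts through the receptor Pdgfrb, and on Notch signals received through Notch3. In lung, Cox4i2 and Higd1b, which encode hypoxia-linked mitochondrial proteins, are commonly used to tell pericytes from vascular smooth muscle, which holds the contractile myosin Myh11. In the GRCm38 annotation Cox4i2 lies at chr2:152754173-152765037 on the plus strand, Higd1b at chr11:102835849-102838040 on the plus strand and Notch3 at chr17:32120820-32166852 on the minus strand.

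With 1 library a group there is no replicate spread, so no test was run between groups. The intervals below are exact 95% intervals for counting error only. The libraries held 76667310 UMIs in the irradiated conditional knockout with drug, 45800421 in the irradiated wild-type and 85984536 in the non-irradiated wild-type. Gated cells contributed 163884, 103872 and 333036 of these. Their median depth was 2422 UMIs per cell in the knockout library, 20320 in the irradiated wild-type library and 2074 in the non-irradiated library. The 3 libraries shared between 25 and 46 cell barcodes pairwise, and none belonged to a gated cell. Sex-linked transcripts placed 1595 kept cells (27.5%) of the irradiated wild-type library as male, against 27 in the knockout library and 1 in the non-irradiated library, so that library held cells of both sexes. Free RNA was present: the surfactant gene Sftpc had a UMI in 33.6% of Ptprc-positive leukocyte-gate barcodes of the knockout library (median 6162 UMIs), 20.9% in the irradiated wild-type library (median 5653 UMIs) and 98.9% in the non-irradiated library (median 5200 UMIs). Among gated cells Sftpc had a UMI in 4 of 15, 1 of 5 and 97 of 97.

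Gated cells were a smaller share of both irradiated libraries. They made up 0.152% (0.0850 to 0.250%) of kept barcodes in the irradiated conditional knockout with drug, 0.0861% (0.0280 to 0.201%) in the irradiated wild-type, and 0.741% (0.601 to 0.903%) in the non-irradiated wild-type. The share in the knockout library was 0.205 times that of the non-irradiated library (0.110 to 0.355), and the share in the irradiated wild-type library was 0.116 times it (0.0369 to 0.281). The knockout library's share was 1.76 times that of the irradiated wild-type library, with an interval from 0.609 to 6.20, so a difference between the 2 irradiated libraries was not detectable at this number of cells.

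The denominator moved these ratios. Barcodes without a Ptprc UMI, Ptprc being the leukocyte antigen CD45, numbered 2845 of 9886 kept in the knockout library, 1318 of 5805 in the irradiated wild-type and 8363 of 13091 in the non-irradiated library. Among them gated cells were 0.527%, 0.379% and 1.16%, which gave ratios to the non-irradiated library of 0.455 (0.245 to 0.787) for the knockout and 0.327 (0.104 to 0.790) for the irradiated wild-type. Set against endothelial cells, the counts lay closer together: there were 5.98 gated cells per 100 endothelial-gate cells in the knockout library (3.30 to 10.1), 5.32 in the irradiated wild-type library (1.69 to 12.9) and 5.06 in the non-irradiated library (4.09 to 6.21). Counting only gated cells with a Cox4i2 or Higd1b UMI, there were 3.98 (1.89 to 7.45), 2.13 (0.254 to 7.90) and 4.70 (3.76 to 5.80), from 10, 2 and 90 cells, so the irradiated wild-type value depended on which cells were counted. The endothelial gate itself held 251, 94 and 1916 cells, 0.174 (0.152 to 0.198) and 0.111 (0.0890 to 0.136) times the non-irradiated share. Smooth muscle cells stood at 0.237 (0.177 to 0.312) and 0.201 (0.134 to 0.293) times the non-irradiated share, and fibroblasts at 0.399 (0.360 to 0.441) and 0.333 (0.290 to 0.381). A share of barcodes cannot tell fewer cells in the lung from fewer cells recovered.

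**Figure D1:**
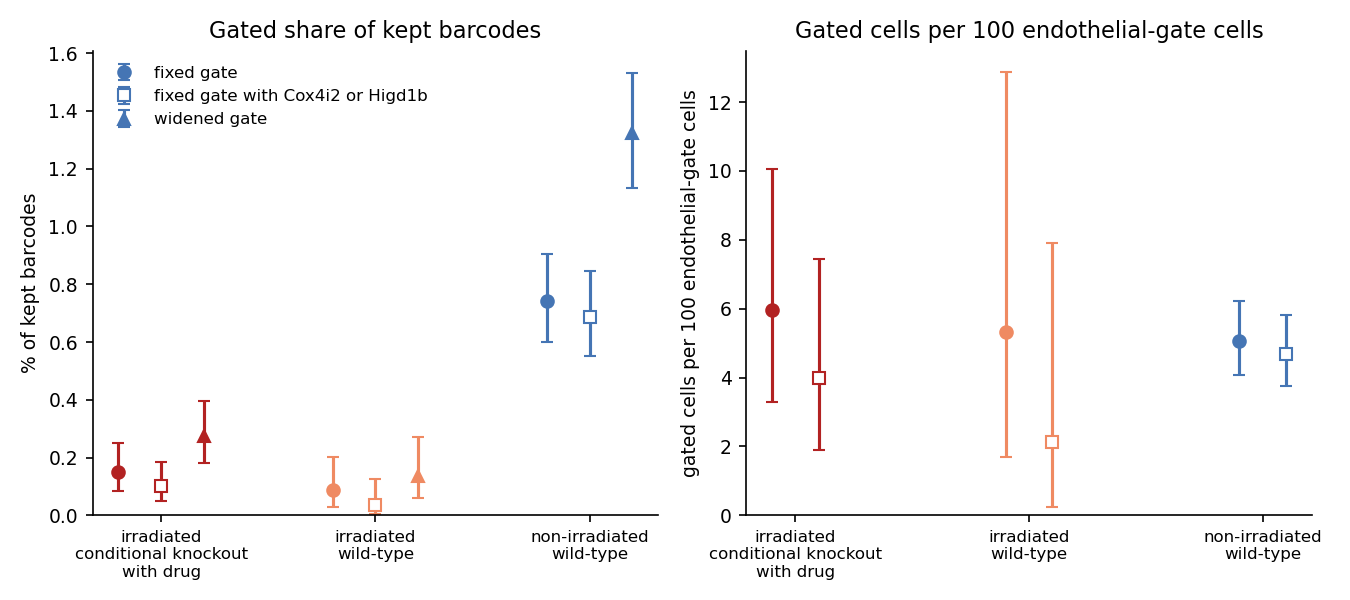
Left, gated cells as a percentage of kept barcodes in each library for the gate as stated, for its cells with a Cox4i2 or Higd1b UMI, and for a widened gate described below; right, cells of the stated gate (filled circles) and those with Cox4i2 or Higd1b (open squares) per 100 endothelial-gate cells. Points are single libraries and bars are exact 95% intervals for counting error; on the left both irradiated libraries lie below the non-irradiated one under all 3 rules, while on the right the values are 5.98, 5.32 and 5.06 for all gated cells and 3.98, 2.13 and 4.70 for those with Cox4i2 or Higd1b.

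The label was checked on 13 pericyte-associated genes that the gate did not use: Cspg4, Rgs5, Kcnj8, Abcc9, Lamc3, Trpc6, Postn, Kcnk3, Ndufa4l2, Vtn, Mcam, Enpep and Art3. In gated cells their summed level was 1495 UMIs per 1000000 (CPM) in the knockout library (1314 to 1694), 308 CPM in the irradiated wild-type (211 to 435) and 5171 CPM in the non-irradiated wild-type (4929 to 5421). In the non-irradiated library 80 of 97 cells carried at least 3 of the 13 and 1 carried none. There the summed markers fitted the label, but Postn alone held 767 of their 1722 UMIs. Rgs5, Kcnj8, Abcc9 and Lamc3 had few UMIs, and Rgs5 and Abcc9 were lower than in the smooth muscle gate, as given below.

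The cells divided by which gate gene admitted them. Cox4i2 or Higd1b had a UMI in 10 of 15 cells of the knockout library, 2 of 5 of the irradiated wild-type and 90 of 97 of the non-irradiated library, and Notch3 alone admitted the other 5, 3 and 7. In the 10 knockout cells with Cox4i2 or Higd1b the 13 genes summed to 10716 CPM (9349 to 12225), against 6002 CPM (5718 to 6297) in the 90 such cells of the non-irradiated library. By cell, however, their medians were 85.6 and 81.4 UMIs of the 13 genes per 10000 UMIs. One knockout cell held 106 of the 221 marker UMIs of its set, and several of the deepest non-irradiated cells had few markers, such as 1 with 9647 UMIs and none. The gap between the sums is thus not a difference between typical cells. In the 5 knockout cells admitted by Notch3 alone they summed to 168 CPM (107 to 249). Those 5 cells had 13366 to 53690 UMIs each and held 87.4% of the UMIs of the knockout library's gated cells, and all 5 carried Col1a1, a fibrillar collagen, and Pdgfra, the receptor that marks lung fibroblasts. One of them was the only knockout member marked by its score in Scrublet, which rates barcodes for resemblance to doublets. Pooled knockout values are therefore mostly values of these 5 cells, and they are called here the Notch3-only cells and given no cell type name.

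Cell by cell, the knockout members with Cox4i2 or Higd1b had between 526 and 6639 UMIs and between 26.4 and 160 UMIs of the 13 genes per 10000. The deepest of them carried 26 UMIs of Cox4i2, 7 of Higd1b, 17 of Notch3, 20 of Pdgfrb, 50 of Postn, 38 of Gucy1a1, 19 of Mcam and 6 of Cspg4, with 1 of Pdgfra and none of Acta2. The Notch3-only cells of the same library had between 0.427 and 2.98 UMIs of the 13 genes per 10000, and the deepest carried 255 UMIs of Col3a1, 259 of Col1a1 and 186 of Tagln. The 2 sets did not overlap in depth or in marker content.

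In the irradiated wild-type library 1 of the 5 cells had 105 UMIs of the 13 genes per 10000, against a median of 79.5 in the gated cells of the non-irradiated library, and the other 4 had 0.492 to 6.82. The first had 1047 UMIs, with 9 of Cox4i2, 6 of Postn, 4 of Ndufa4l2 and 1 of Kcnk3, and no Col1a1, Col1a2 or Col3a1. The other cell with Cox4i2 had 23313 UMIs, of which 5 were Cox4i2, 4 were Ndufa4l2, 826 were Col1a1, 325 were Col1a2 and 272 were Col3a1, and none was Postn. Col1a1, Col1a2 and Col3a1 together stood at 10160 CPM in the gated cells of the knockout, 30547 CPM in those of the irradiated wild-type and 5747 CPM in those of the non-irradiated library. Rgs5, Lamc3, Trpc6, Vtn, Mcam and Art3 had no UMI in the irradiated wild-type members, and Gucy1a1 had 1. For that library the data go against the label in 4 of 5 cells.

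**Figure D2:**
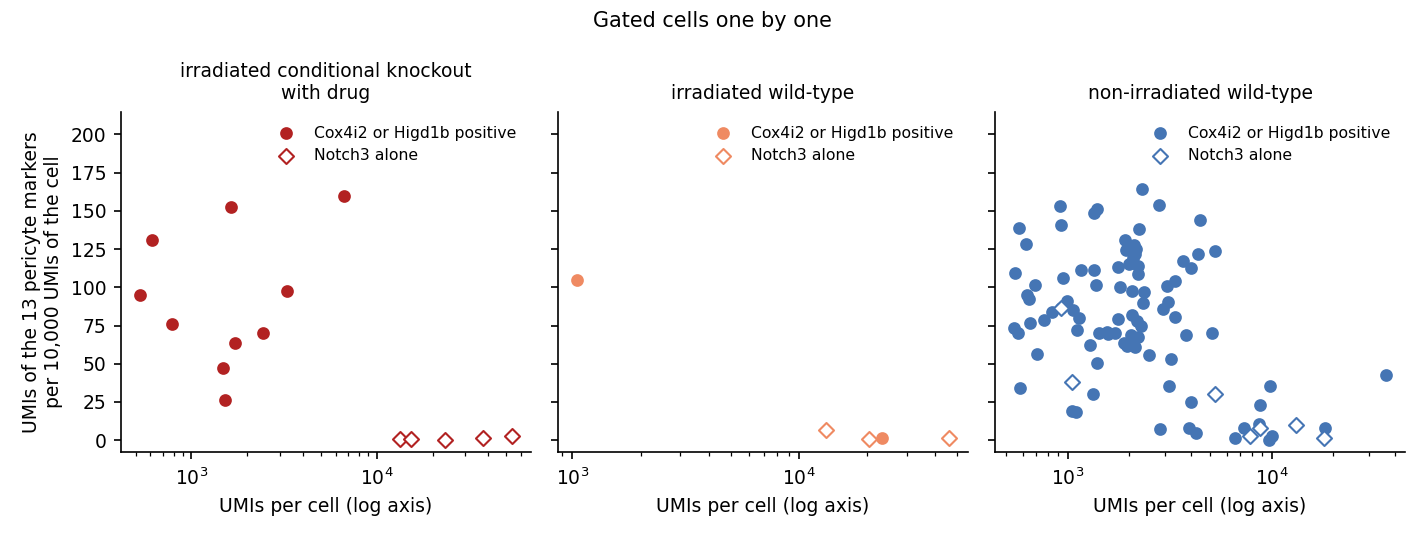
Each point is 1 gated cell, placed by its UMIs (log axis) and by its UMIs of the 13 pericyte markers not used by the gate, per 10000 UMIs; filled circles have a Cox4i2 or Higd1b UMI and open diamonds were admitted by Notch3 alone. The 5 Notch3-only cells of the knockout library and 4 of the 5 irradiated wild-type cells lie deep and near the floor of the plot.

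Cells just outside the gate on the Myh11 side had higher marker sums than all cells inside it pooled, in each library. In the knockout library this does not hold against the 10 cells inside with Cox4i2 or Higd1b, at 10716 CPM, since the Notch3-only cells hold most of the UMIs inside. Cells that met every other criterion but had 1 UMI of Myh11 numbered 9 in the knockout library, 1 in the irradiated wild-type and 34 in the non-irradiated library, and their 13 genes summed to 7096, 4069 and 6931 CPM. Cells with 2 to 5 UMIs of Myh11 numbered 10, 5 and 55, with 8254, 10273 and 7905 CPM. Cells with more than 5 numbered 25, 10 and 132. Their marker sums were 2414, 1939 and 2128 CPM, and Acta2 and Tagln, the smooth muscle actin and transgelin, together reached 29203, 19802 and 27799 CPM in them. Between 2 and 5 UMIs of Myh11 those 2 genes stood at 5614, 2029 and 1572 CPM. On the other side, cells in which Cox4i2, Higd1b and Notch3 summed to 1 UMI had marker sums of 234, 136 and 273 CPM. Myh11 had a UMI in 0.611%, 0.297% and 4.26% of leukocyte-gate barcodes of the 3 libraries, at the depths given above. The criterion of no Myh11 thus left out cells with these markers in each library.

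**Figure D3:**
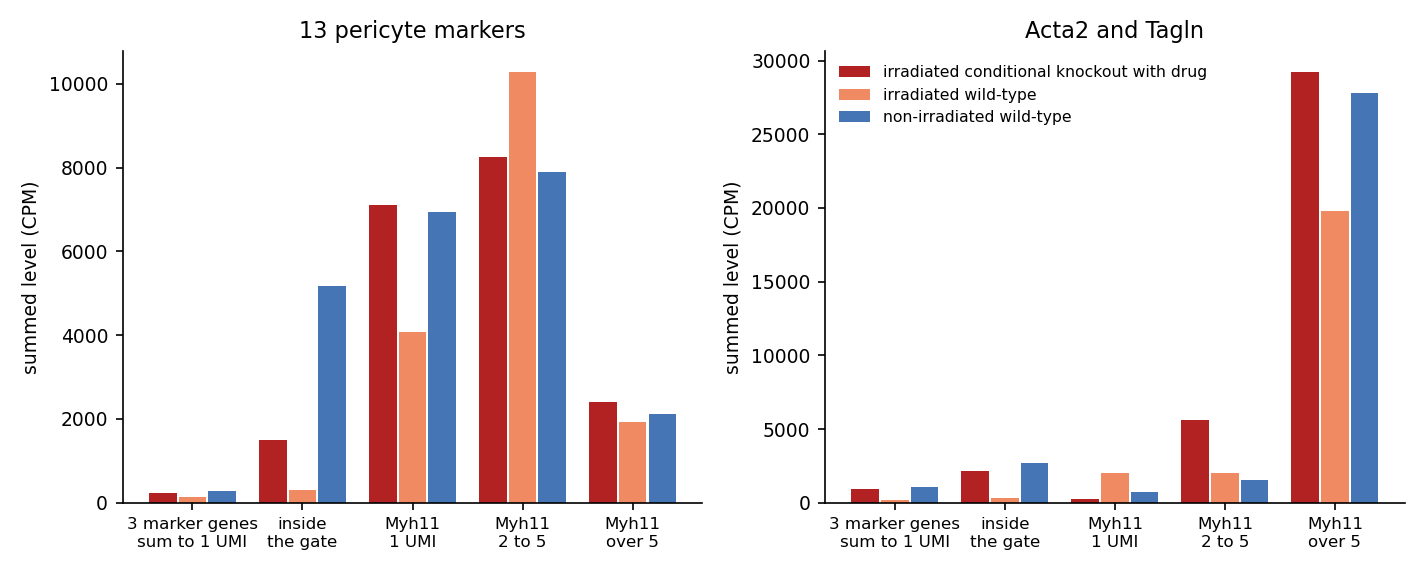
Summed levels in CPM of the 13 pericyte markers (left) and of Acta2 and Tagln (right) in pooled cells inside the gate and just outside it, 1 bar per library with no replicate. Marker sums of cells with 1 to 5 Myh11 UMIs reach 4069 to 10273 CPM and those of cells with more than 5 stay between 1939 and 2414 CPM, where Acta2 and Tagln reach 19802 to 29203 CPM.

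A widened gate was therefore set after these values were seen: up to 5 UMIs of Myh11, at least 1 UMI of Cox4i2 or Higd1b, and all other criteria as before. It held 27 cells (109013 UMIs) of the knockout library, 8 cells (56883 UMIs) of the irradiated wild-type and 173 cells (629225 UMIs) of the non-irradiated library. Of these, 2, 4 and 26 also met the smooth muscle gate. The 13 genes summed to 8577, 6030 and 7203 CPM. The shares were 0.273% (0.180 to 0.397%), 0.138% (0.0595 to 0.271%) and 1.32% (1.13 to 1.53%) of kept barcodes, which are 0.207 (0.132 to 0.311) and 0.104 (0.0443 to 0.210) times the non-irradiated share. The knockout share was 1.98 times the irradiated wild-type share (0.876 to 5.05). Both ratios to the non-irradiated library lay inside the intervals of the stated gate.

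The non-irradiated library, with 97 cells, gives the fullest profile. By a rule chosen after the values were seen (at least 20 UMIs from at least 15 cells, and at least 3 times the level of the highest of 5 other gates, with 10 CPM added to both), 66 genes led in them, 3 of which the gate itself uses. These cells were chosen on the same counts, so the genes are a description. Folds in this paragraph are against the smooth muscle gate, with 10 CPM added. Among the 63 others were Pdzd2, which encodes a PDZ-domain protein (3279 CPM, 7.85 times), Trpc6, a diacylglycerol-gated cation channel (270 CPM, 6.14 times), Agtr1a, the angiotensin II receptor (123 CPM, 6.05 times), Vtn, the adhesive glycoprotein vitronectin (126 CPM, 5.75 times), Ndufa4l2, a hypoxia-induced mitochondrial protein (736 CPM, 5.42 times), and Postn, the matricellular protein periostin (2303 CPM, 3.74 times). The transcription factors Nr2f1, Foxf2, Tbx5 and Tbx2 were also among them, at 177, 252, 288 and 748 CPM. Of the 63, 55 were also highest in the gated cells of the knockout library and 5 in those of the irradiated wild-type, where 31 had no UMI. All but 3 of the 63 (60) had a UMI in the 10 knockout cells with Cox4i2 or Higd1b. The same shares over all genes were not counted, so these counts do not bear on the label. Some of the knockout values came mostly from the Notch3-only cells. The 10 cells with Cox4i2 or Higd1b held 85 of 578 Spp1 UMIs, 17 of 163 Ltbp2 UMIs and 3 of 120 Fst UMIs.

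Genes of the nitric oxide pathway were among them. Gucy1a1 and Gucy1b1, the 2 subunits of soluble guanylyl cyclase, stood at 2159 and 1294 CPM in gated cells of the non-irradiated library against 568 and 413 CPM in its smooth muscle gate. Pde5a, which breaks down the cyclic GMP that this enzyme makes, stood at 2486 against 465 CPM. Gucy1a2, another subunit, and S1pr3, a sphingosine-1-phosphate receptor, led in the same cells. The level of Gucy1a1 was not particular to the gate. In non-irradiated cells that met every other criterion it stood at 2642 CPM with 1 Myh11 UMI and 3325 CPM with 2 to 5. With more than 5 Myh11 UMIs it stood at 586 CPM.

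Several markers used for pericytes of other organs had few UMIs. In the 97 cells Rgs5, a regulator of G-protein signalling, had 9 UMIs in 5 cells, Kcnj8 and Abcc9, the subunits of a vascular potassium channel, had 4 UMIs each, and Lamc3, a laminin chain, had 7. Rgs5 stood at 27.02 CPM in gated cells and 76.6 CPM in the smooth muscle gate. Abcc9 stood at 12.0 CPM in gated cells against 97.3 CPM in smooth muscle and 67.0 CPM in fibroblasts. The gated cells of the non-irradiated library summed to 9320 CPM over 22 contractile genes, against 63340 CPM in smooth muscle and 4359 CPM in fibroblasts, and to 9777 CPM over 23 basement membrane genes, against 4894 and 5748 CPM.

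Promoters of Gucy1a1, Postn and Trpc6 are shown, from RefSeq, because these genes were higher in gated cells of the non-irradiated library than in its smooth muscle gate. Gucy1a1 and Postn have 2 entries each, and 1 of the 2 for Postn is printed. Each runs from 250 bases before the start to 50 after it, on the gene's strand, in build GRCm38.p6. Capitals mark TGGGAA, the core bound by the Notch effector RBPJ, on either strand, which occurs in 25.6% of the 32851 promoters of the table. It occurs 4 times in the second Gucy1a1 entry and not in the first, in Trpc6 or in either Postn entry. A match describes letters and is no binding site.
Gucy1a1, chr3:82145601-82145900, minus strand: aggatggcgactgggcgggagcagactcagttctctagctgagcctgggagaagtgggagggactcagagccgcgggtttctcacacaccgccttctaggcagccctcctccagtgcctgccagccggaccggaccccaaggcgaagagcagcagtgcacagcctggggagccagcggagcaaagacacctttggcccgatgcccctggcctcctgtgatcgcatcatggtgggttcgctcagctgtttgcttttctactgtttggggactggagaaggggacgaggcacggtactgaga
Gucy1a1, chr3:82145024-82145323, minus strand: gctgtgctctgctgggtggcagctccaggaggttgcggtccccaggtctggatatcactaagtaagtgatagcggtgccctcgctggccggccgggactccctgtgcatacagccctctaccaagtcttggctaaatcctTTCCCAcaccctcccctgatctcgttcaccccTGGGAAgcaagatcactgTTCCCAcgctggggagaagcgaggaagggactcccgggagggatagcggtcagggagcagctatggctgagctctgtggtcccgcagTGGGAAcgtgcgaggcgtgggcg
Postn, chr3:54360857-54361156, plus strand: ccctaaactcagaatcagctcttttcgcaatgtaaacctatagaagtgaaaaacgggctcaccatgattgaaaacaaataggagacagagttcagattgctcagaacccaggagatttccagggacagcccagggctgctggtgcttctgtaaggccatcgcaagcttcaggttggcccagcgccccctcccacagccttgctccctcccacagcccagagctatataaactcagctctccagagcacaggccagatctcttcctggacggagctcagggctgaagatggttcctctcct
Trpc6, chr9:8543892-8544191, plus strand: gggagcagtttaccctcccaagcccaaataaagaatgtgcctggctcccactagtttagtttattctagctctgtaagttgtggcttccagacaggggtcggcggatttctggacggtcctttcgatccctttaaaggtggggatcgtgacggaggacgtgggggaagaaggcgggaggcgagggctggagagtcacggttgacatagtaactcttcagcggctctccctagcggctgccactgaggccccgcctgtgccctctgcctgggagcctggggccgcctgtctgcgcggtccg

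Levels of marker genes within the cells depended on which cells were compared. Over all gated cells, Postn stood at 775 CPM in the knockout library, 135 CPM in the irradiated wild-type and 2303 CPM in the non-irradiated library, and Gucy1a1 at 677, 9.63 and 2159 CPM. Over cells with Cox4i2 or Higd1b, Postn stood at 5382 CPM in the knockout and 2658 CPM in the non-irradiated library, and Gucy1a1 at 4558 and 2553 CPM. The order of the 2 libraries turned round, with 1 knockout cell holding 50 of the 111 Postn UMIs of its set. With the widened gate Postn stood at 3972 CPM (3607 to 4364) in the knockout library, 2567 CPM (2167 to 3018) in the irradiated wild-type and 3188 CPM (3050 to 3331) in the non-irradiated library. Gucy1a1 stood at 3559 CPM (3214 to 3932), 2532 CPM (2135 to 2980) and 2973 CPM (2840 to 3111). In both genes the irradiated wild-type was lowest and the knockout highest, but 1 cell held 56.2% of the 146 Postn UMIs of the 8 irradiated wild-type cells, and spread between mice was not measured.

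**Figure D4:**
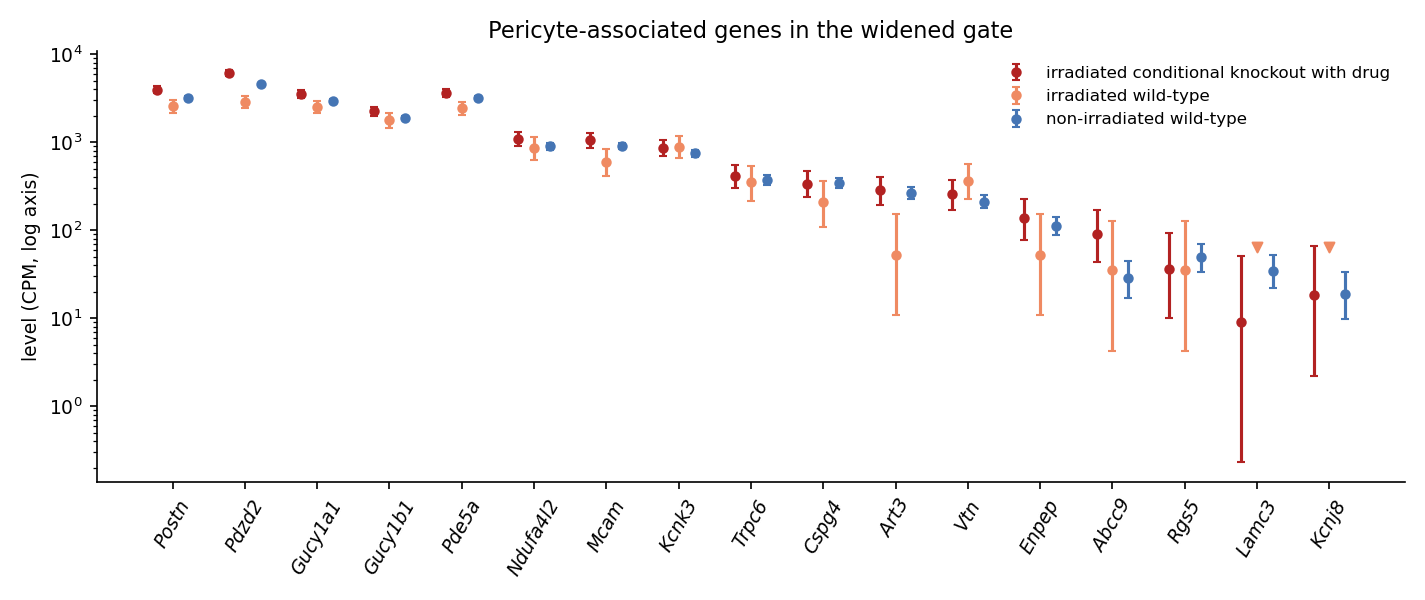
Levels in CPM (log axis) of 17 pericyte-associated genes over the pooled cells of the widened gate, 27, 8 and 173 cells per library; points are single libraries, bars are exact 95% Poisson intervals and downward triangles mark the upper limit where no UMI was seen. Pdzd2 stands at 6109, 2883 and 4607 CPM, and Art3 is low in the irradiated wild-type, at 3 UMIs.

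Gene lists were compared as log2 ratios of CPM with 10 CPM added to each side, over genes with at least 20 UMIs in both libraries together, counting those at least 1.5-fold apart. Over all gated cells, 17.3% of 4333 genes were higher and 26.8% lower in the knockout than in the non-irradiated library. Of the pericyte identity list, 18 of 23 genes were compared, 0 were higher and 17 lower, with a median of -1.63 against -0.08 over all genes. Over cells with Cox4i2 or Higd1b, with a background of 25.3% higher and 32.5% lower among 2787 genes, 10 were higher and 0 lower, with a median of 0.63. In those cells 3 UMIs are 145.5 CPM in the knockout and 10.8 CPM in the non-irradiated library. Genes of low level can thus count as lower from depth, in every list counted there. In the widened gate, with a background of 12.7% higher and 16.9% lower among 5762 genes, 2 of 21 were higher and 1 lower, with a median of 0.19 against -0.03 over all genes. The 2 higher were Abcc9, at 92 CPM (10 UMIs) against 29 CPM, and Gja4, which encodes the gap junction protein connexin 37, at 165 against 106 CPM. The lower was Lamc3, at 1 of 109013 UMIs against 22 of 629225, a count too low to give a level in the knockout. Cspg4, the NG2 proteoglycan of mural cells, stood at 339 against 350 CPM, Trpc6 at 413 against 375 CPM and Kcnk3, an acid-sensitive potassium channel, at 862 against 756 CPM.

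Vasoactive and cyclic GMP genes also depended on the cells compared. Over all gated cells 0 of 10 compared genes were higher and 8 lower in the knockout than in the non-irradiated library (17.3% and 26.8% of all genes). Over cells with Cox4i2 or Higd1b 7 of 10 were higher and 0 lower (25.3% and 32.5% of all genes). In the widened gate 2 of 13 were higher and 1 lower (12.7% and 16.9% of all genes), which is close to or under those shares. The 2 higher ones were P2ry14, a receptor for UDP-sugars, at 266 CPM (29 UMIs in 10 cells) against 73.1 CPM, and Adcy8, an adenylyl cyclase, at 504 CPM against 235 CPM. Calcrl, the receptor component for adrenomedullin and CGRP that capillary endothelium also expresses, was the lower one. It had 0 of 109013 UMIs against 23 of 629225. Ednra, the endothelin receptor, stood at 440 against 367 CPM and S1pr3 at 477 against 374 CPM, both under 1.5-fold.

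Notch and PDGF genes were counted in the widened gate, where 12.7% of all genes compared were higher in the knockout and 16.9% lower. Of 8 Notch genes compared, Nrarp and Notch1 were at least 1.5-fold higher in the knockout than in the non-irradiated library, at 229 against 141 CPM and 294 against 192 CPM. Hes1, a transcriptional repressor and Notch target, was lower at 138 against 288 CPM, and Rbpj, the DNA-binding partner of Notch, at 64 CPM (7 UMIs) against 99 CPM. Heyl, a Notch target of mural cells, stood at 238 against 213 CPM. Of 7 PDGF genes Grb2, an adaptor, was higher at 156 against 97 CPM. Pdgfra was lower, with 1 UMI in 1 of 27 cells against 132 UMIs in 24 of 173 cells.

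**Figure D5:**
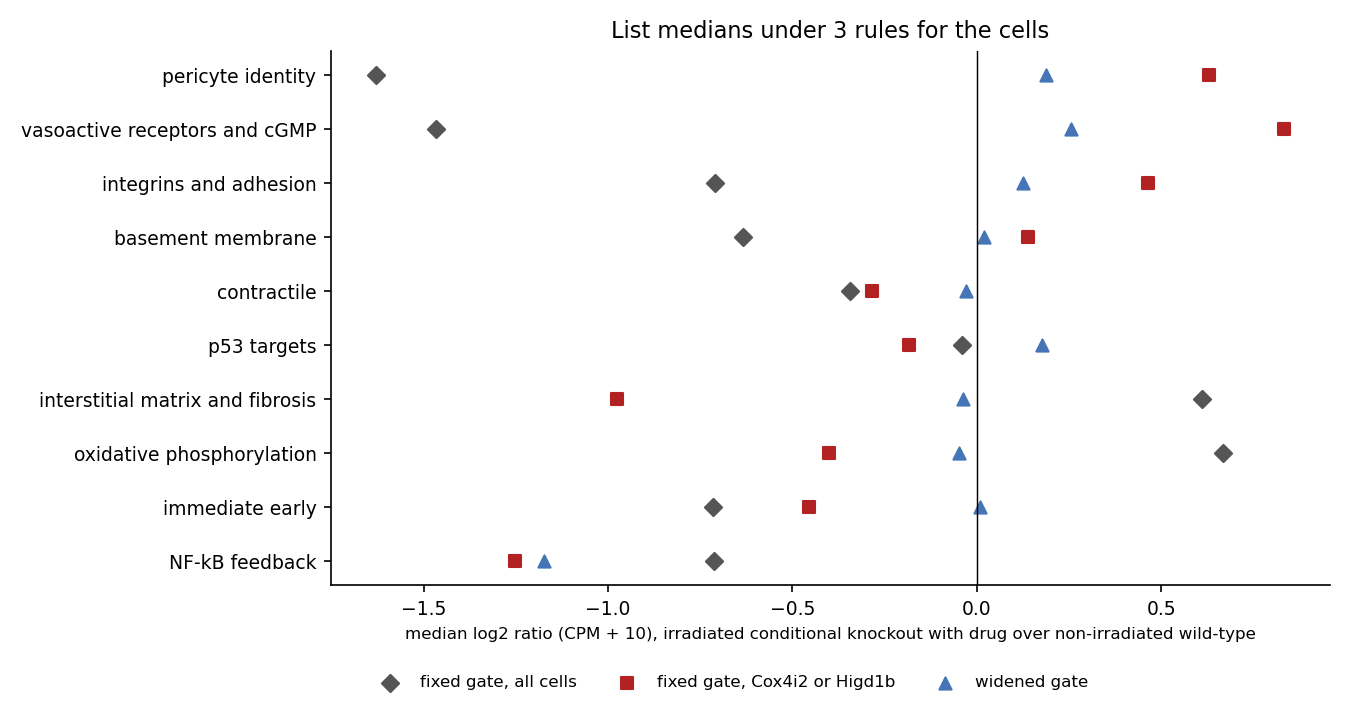
Median log2 ratio (CPM plus 10), irradiated conditional knockout with drug over non-irradiated wild-type, of 10 gene lists under 3 rules for the cells, 1 point per list and rule. The pericyte identity median lies at -1.63 over all gated cells, at 0.63 with Cox4i2 or Higd1b required and at 0.19 in the widened gate. NF-kB feedback is below 0 under all 3 rules, which share cells.

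The count of matrix genes turned round with the cells compared. Over all gated cells 15 of 30 interstitial matrix genes were higher and 3 lower in the knockout than in the non-irradiated library (median 0.61). Of all genes 17.3% were higher and 26.8% lower there. Over cells with Cox4i2 or Higd1b 3 of 27 were higher and 17 lower (-0.98), beside 25.3% and 32.5% of all genes. In the widened gate 6 of 32 were higher and 7 lower (-0.04), beside 12.7% and 16.9% of all genes. Among the 6, Spp1, the secreted phosphoprotein osteopontin, stood at 3046 CPM (2727 to 3391) in the knockout library, 1143 CPM (882 to 1456) in the irradiated wild-type and 1772 CPM (1670 to 1879) in the non-irradiated library, with UMIs in 18 of 27, 3 of 8 and 81 of 173 cells. One cell held 32.8%, 81.5% and 7.44% of those UMIs, and the leukocyte gates of the same libraries stood at 915, 243 and 49.2 CPM of Spp1; the part of free RNA was not tested. Lum, a small proteoglycan of fibroblasts, had 44 UMIs in 2 cells, 70.5% of them in 1 cell, against 1 UMI. Fn1, fibronectin, was lower at 64 CPM (7 UMIs in 2 cells) against 563 CPM. Of the basement membrane genes, Col4a1 stood at 2082 against 2084 CPM, Col4a2 at 1385 against 1256 CPM and Nid1, which encodes nidogen, at 504 against 491 CPM in the widened gate, where 1 of 18 genes was higher and 5 lower.

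In the irradiated wild-type library the list values rest on 5 gated cells and on 8 cells of the widened gate. Over gated cells 14.5% of 3811 genes were higher and 39.6% lower than in the non-irradiated library, with a median of -0.32 over all genes, and 0 of 18 pericyte identity genes were higher and 18 lower. Among widened cells 14.1% of 5460 genes were higher and 35.5% lower, with a median of -0.25. There 1 of 21 pericyte identity genes was higher and 9 lower, with a median of -0.39. The higher one was Vtn, at 369 CPM (21 UMIs) against 213 CPM, and Art3, a membrane ADP-ribosyltransferase family member, was lower at 52.7 CPM (10.9 to 154) against 267 CPM (228 to 311). Interstitial matrix genes were higher in 13 of 31 and lower in 4. Col1a1 stood at 14890 against 1082 CPM, but the same collagen-rich cell with 23313 UMIs held 41.0% of this library's widened UMIs and 826 of its 847 Col1a1 UMIs. The 2 irradiated libraries were also set side by side over gated cells: 29.3% of 2182 genes were higher and 13.3% lower in the knockout than in the irradiated wild-type, and 8 of 9 pericyte identity genes were higher and 0 lower. As given above, 4 of these 5 irradiated wild-type cells went against the label, and the Notch3-only cells held most knockout UMIs. That count thus does not compare pericytes of the 2 libraries. Lists of this pair were not compared in the widened gate.

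UMIs of the radiation-response genes Cdkn1a, Gdf15 and Fos came mostly from 1 cell in each irradiated library. Of the p53 list, 7 of 22 target genes were higher and 4 lower in widened cells of the knockout than in the non-irradiated library (median 0.18). Of all genes 12.7% were higher and 16.9% lower in that comparison. Cdkn1a, the cell cycle inhibitor p21, stood at 184 CPM in the knockout library, 545 CPM in the irradiated wild-type and 103 CPM in the non-irradiated library, with UMIs in 6 of 27, 3 of 8 and 27 of 173 cells. A single cell held 65.0%, 90.3% and 33.8% of those UMIs. Gdf15, a stress-induced cytokine, had all of its 23 and 19 UMIs in 1 cell each of the irradiated libraries. The immediate early gene Fos stood at 2000, 2813 and 696 CPM, and 1 cell held 88.5%, 95% and 7.31% of the UMIs. By median cell, Fos stood at 0, 3.55 and 0 UMIs per 10000.

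Most compared NF-kB feedback genes were lower in the knockout than in the non-irradiated library under each of the 3 rules for the cells. Of the NF-kB feedback list, 0 of 10 genes were higher and 6 lower over all gated cells, where 26.8% of all genes were lower. Over cells with Cox4i2 or Higd1b 0 of 9 were higher and 9 lower (32.5% of all genes). There 3 UMIs are 145.5 CPM in the knockout against 10.8 CPM, so genes of low level can count as lower from depth. In the widened gate 1 of 13 was higher and 8 lower (16.9%). The 3 rules share cells, so they are not separate results. This list was not examined under the other settings, such as equal cell weight, thinning or the stricter gate. In widened cells of the irradiated wild-type 3 of 13 were higher and 6 lower (median -0.14), where 14.1% of all genes were higher and 35.5% lower. For widened cells, Tnfaip2 stood at 18 against 124 CPM, the former below the 27.5 CPM that 3 UMIs make in the knockout cells. Nfkb1, an NF-kB subunit, stood at 73 against 178 CPM. Nfkbia, the inhibitor IkB-alpha, stood at 725 against 547 CPM, with 73.4% of the knockout UMIs in 1 cell. Of the chemokine and cytokine list, in the widened gate, 0 of 18 were higher and 9 lower: the chemokine Ccl2 had 1 UMI against 381 UMIs in 16 cells, 40.2% of them in 1 cell, and Cxcl10 had 4 against 234 in 25 cells. Markers of other cells were also lower in these knockout cells: leukocyte markers summed to 349 CPM against 865 CPM, epithelial markers to 1092 against 3582 CPM and alveolar fibroblast markers to 1027 against 3840 CPM. Their part in the inflammatory difference was not tested.

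For the knockout, 27 cells were enough for a list of single genes by the rule set for libraries of at least 20 cells: at least 2-fold apart, with at least 10 UMIs from at least 3 cells in the higher library. By that rule 93 genes (1.61% of those compared) were higher and 496 (8.61%) lower than in the non-irradiated library. The bar was not the same in both directions: 3 UMIs are 27.5 CPM in the knockout cells and 4.77 CPM in the non-irradiated cells. Likewise, 3 cells are a larger part of 27 than of 173. The rule thus favoured lower genes, and the 2 counts cannot be compared with each other. In 23 of the 93, 1 cell held at least 50% of the knockout UMIs. Of the 10 highest by ratio, Igfbp5, Aspn, Kazald1, S100a4, Atf3, Pim3 and Mustn1 came from 3 to 7 knockout cells each. One cell held 94.6% of the Atf3 UMIs, and S100a4 stood at 293 CPM beside 258 CPM in the knockout leukocyte gate. Exosc7, an RNA exosome subunit, Cers5, a ceramide synthase, and P2ry14 came from 7, 9 and 10 cells. Cers5 stood at 110 CPM (56.9 to 192) against 25.4 CPM (14.5 to 41.3). The 10 lowest were Ccl2, Cdh11, Pcolce2, Inmt, Lrat, Pdgfra, Zcchc7, Mid1, Cxcl10 and Saa3. Inmt, Pcolce2, Cdh11 and Pdgfra are genes of lung fibroblasts, and Inmt stood at 101 CPM against 1348 CPM, with 107 against 554 CPM in the leukocyte gates of the same libraries. Zcchc7 had 0 UMIs in 27 cells against 51 UMIs in 41 of 173 cells.

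Over all kept cells, markers that the gate did not use were lower in both irradiated libraries. Postn stood at 14.4 CPM in the knockout library, 11.6 CPM in the irradiated wild-type and 67.2 CPM in the non-irradiated library, ratios to the last of 0.214 (0.201 to 0.229) and 0.173 (0.158 to 0.190). The 13 ratios ran from 0.147 for Vtn to 0.554 for Kcnj8 in the knockout and from 0.146 for Rgs5 to 0.504 for Kcnj8 in the irradiated wild-type. Gated cells held 14.5% of the UMIs of the gate gene Cox4i2 in the knockout library, 6.25% in the irradiated wild-type and 15.5% in the non-irradiated library. Of the 13 markers they held from 0% (Rgs5, Kcnj8 and Abcc9) to 25% (Vtn) in the knockout library. The range was from 0% to 5.80% (Ndufa4l2) in the irradiated wild-type and from 0.182% (Abcc9) to 17.9% (Trpc6) in the non-irradiated library. Most UMIs of each marker thus lay outside the gate, and these ratios do not describe the gated cells. At the level of a whole library, fewer cells, less RNA per cell, a different share of Ptprc-positive barcodes and free RNA cannot be told apart.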

How the data were processed

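Droplet 3' RNA libraries of mouse lung were analysed, 1 per group. The deposited matrices hold raw counts of UMIs per gene and barcode, with no normalization by the authors. Per the file headers the software was version 3.1.0, with its name left out; per the submitters' processing notes the build was mm10. The lowest barcode total is 500 UMIs.

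Cells and lists were chosen with earlier results of these data known. Levels are summed UMIs per 1000000 (CPM). Shares have exact binomial, levels exact Poisson and ratios conditional exact intervals at 95%, for counting error only. Doublets were scored with Scrublet (scanpy 1.11.5), the highest scores (0.8% per 1000 barcodes) were marked, and marked cells stayed in the main values. Of 787 listed genes 782 are in the files. Genes named are all pericyte identity genes measured where they bear on a count, list members with the largest ratios, and the 10 largest ratios each way among genes apart whose level was at least 20% of the highest other gate; gate, mitochondrial, ribosomal, haemoglobin, clone-named and sex-linked genes were left out. Other genes were named after their values were seen. A library with under 20 gated cells got no list of genes apart, so that list comes from the widened gate, added after seeing the data. Code for it was tested on simulated counts. Alternatives changed the gate, denominator, depth, added CPM, UMI minimum, scaling and cell weights. Analyses ran in Python 3.11.15 with pandas 2.3.3, numpy 2.4.6, scipy 1.17.1 and matplotlib 3.10.9.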

Additional observations from a re-analysis of the deposited data

How the results depend on the processing

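No paired analysis was possible because each group has 1 library. The list of genes apart could not be made for the gate as stated, with 15 and 5 cells in the irradiated libraries, so its alternatives were not run there.

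The ratios of the gated share to the non-irradiated library stayed below 1 under all 11 other settings, 3 of them added after seeing the data. With the stricter gate (at least 3 UMIs from at least 2 of the 3 genes) they were 0.0981 for the irradiated conditional knockout with drug and 0.0278 for the irradiated wild-type, and with the Ptprc-negative denominator 0.455 and 0.327. Endothelial-gate cells as denominator were not among these settings, and with them the lower values in the irradiated libraries were not seen. Per 100 endothelial-gate cells there were 5.98, 5.32 and 5.06 cells of the stated gate in the knockout, irradiated wild-type and non-irradiated libraries. The widened gate had 10.8, 8.51 and 9.03. The share ratio of knockout to irradiated wild-type ran from 1.29 (0.413 to 4.73) to 3.52 (0.427 to 162). Its interval included 1 under every setting.

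List medians over gated cells, knockout over non-irradiated, turned round with the choice of cells. With the stricter gate they became 0.72 for pericyte identity, 0.69 for vasoactive and cyclic GMP genes, -1.64 for interstitial matrix and -0.54 for oxidative phosphorylation, from 6, 1 and 81 cells. With Cox4i2 or Higd1b required (added after seeing the data) the same 4 were 0.63, 0.83, -0.98 and -0.40, and basement membrane was 0.14. In the widened gate they were 0.19, 0.26, -0.037 and -0.049, basement membrane was 0.019 and the immediate early list 0.0076. Weighting every cell equally put basement membrane at 0.18, moved pericyte identity to -0.38 (1 of 18 higher, 6 lower) and vasoactive genes to -0.32 (1 of 10 higher, 3 lower); thinned to 1000 UMIs a cell, these 2 were -0.55 and -0.30. Scaling by median of ratios moved the median of all genes to -0.34 over gated cells and to -0.12 in the widened gate.

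In the widened gate the 93 higher and 496 lower genes became 26 and 73 with 50 CPM added. With at least 10 UMIs, or at least 1, 851 were lower. With every cell at equal weight 148 were higher and 715 lower, of which 57 and 383 were among the 93 and 496. Thinned to 1000 UMIs a cell, 23 were higher and 208 lower, of which 0 and 35 were among the 93 and 496; only genes of high level can then reach 10 UMIs. With Myh11 = 0 only, 55 were higher and 553 lower, of which 4 and 103 were among them; with 1 to 5 Myh11 UMIs only, 97 and 343, of which 48 and 204. Without the cell with most UMIs in each library, 53 of the 93 and 434 of the 496 stayed apart. Single genes also turned round: Atf3 to -0.41 at equal weight, -0.13 thinned, -1.59 without the deepest cells and -1.01 with Myh11 = 0; Pim3 to -2.79 thinned, -0.54 without the deepest cells and -2.68 with Myh11 = 0; Kazald1 to -2.10 thinned; and, with Myh11 = 0, Aspn to -3.10, S100a4 to -2.41 and Mustn1 to -3.94. The cause was not tested.

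Depth limits the irradiated libraries: 3 UMIs are 18.3 CPM over the gated cells of the knockout, 28.9 CPM over those of the irradiated wild-type and 9.01 CPM over those of the non-irradiated library. Over the gated cells with Cox4i2 or Higd1b, 3 UMIs are 145.5, 123 and 10.8 CPM in the same order.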

Other observations

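The files also count a dTomato sequence, a red fluorescent reporter. It had UMIs in 4 of 15 gated cells of the irradiated conditional knockout with drug, 1 of 5 of the irradiated wild-type and 7 of 97 of the non-irradiated wild-type. In the leukocyte gates of the same libraries, with median depths of 6162, 5653 and 5200 UMIs, it had UMIs in 2.08%, 1.69% and 5.94% of barcodes. Gated cells held 20, 2 and 16 dTomato UMIs. In the widened gate, which leaves out the Notch3-only cells, it had UMIs in 2 of 27, 1 of 8 and 14 of 173 cells. Those cells held 4, 2 and 22 dTomato UMIs. Most dTomato UMIs of the knockout's gated cells thus lay in its 5 Notch3-only cells, which had 13366 to 53690 UMIs each. The labels do not state what the reporter marks.

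Gated cells of low marker content were also present in the non-irradiated library. There the 7 cells admitted by Notch3 alone had a median of 7800 UMIs, a marker sum of 964 CPM (722 to 1261) and Col1a1, Col1a2 and Col3a1 at 13896 CPM, against 2044 UMIs, 6002 CPM and 4136 CPM in the 90 cells with Cox4i2 or Higd1b.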
